A study of Mus musculus with 4 samples.

Results

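Cluster 1 is the macrophage cluster that held most of the tumour macrophages of isotype control mice and whose leading genes were Cd72, Vcam1 and Cd81. Its 2053 cells, of 14491 cells used, are those given the number 1 in the authors' deposited clustering of tumour-infiltrating CD45+ cells. The numbers carry no cell type, so the name rests on marker genes. The study compared wild-type mice of strain 129S6 that carried transplanted tumours and received the PD-1 antibody RMP1-14, the CTLA-4 antibody 9D9, both of them in combination, or rat IgG2a isotype control. Doses were 200 µg of antibody into the peritoneum, on days 3, 6 and 9 after transplant for the checkpoint antibodies. Live CD45+ cells were then sorted from collagenase-digested tumours and made into 10x Genomics 3′ libraries with version 1 reagents. The sources used here do not give the tumour line, the age of the mice or how many mice stand behind a library. CD45 marks all white blood cells, so the sort sets which cells could be seen and carries no further selection of macrophages.

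Each group was 1 library, so no comparison between groups was tested and no p-value is given. Differences are ratios of UMI counts (unique molecular identifiers, each standing for 1 captured transcript), summed over the cluster's cells in a library and scaled by the sum over all genes there to the usual CPM. The 95% intervals given with ratios and shares cover counting error only and say nothing of variation between mice. Cluster 1 held 1273676 UMIs in the anti-PD-1 library, 1627989 in the anti-CTLA-4 library, 823553 in the combination library and 4863511 in the control library. Its median depth per cell was 4002, 3957 and 3315.5 UMIs in these treated libraries and 4428 UMIs in the control library. Where 3 values of treated libraries stand in a row, the first is that of anti-PD-1, the next that of anti-CTLA-4 and the last that of the combination. The libraries shared 12 to 25 listed barcodes per pair, of which 0 to 2 lay in cluster 1 in both.

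Macrophages of a tumour come from tissue-resident cells and from blood monocytes that mature after they enter. They differ in which receptors they carry, in how much antigen they present, and in whether they make inflammatory or repair-type products. Cd72 encodes a C-type lectin with an inhibitory ITIM motif, best known as a co-receptor of B cells and a receptor for semaphorin 4D. Vcam1 encodes an adhesion molecule that binds the integrin VLA-4, and Cd81 a tetraspanin that organises other membrane proteins.

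The upstream sequences of Cd72 and Cd81 are shown because these 2 markers had lower levels in cluster 1 of every treated library than in control. Cd72 (ENSMUSG00000028459) is a protein-coding gene at chr4:43446462-43454628 on the minus strand of GRCm38, and Cd81 (ENSMUSG00000037706) one at chr7:143052739-143067934 on the plus strand. Vcam1 (ENSMUSG00000027962) lies at chr3:116109949-116129688 on the minus strand. The 250 bases before the start site, credited to RefSeq on GRCm38.p6 and written 5′ to 3′ on the gene's strand, lie at chr4:43454627-43454876 for Cd72 and at chr7:143052500-143052749 for Cd81. Capitals mark ACTTCCTC, the reverse complement of GAGGAAGT, a form of the binding motif of PU.1, the lineage factor of macrophages and B cells.
Cd72: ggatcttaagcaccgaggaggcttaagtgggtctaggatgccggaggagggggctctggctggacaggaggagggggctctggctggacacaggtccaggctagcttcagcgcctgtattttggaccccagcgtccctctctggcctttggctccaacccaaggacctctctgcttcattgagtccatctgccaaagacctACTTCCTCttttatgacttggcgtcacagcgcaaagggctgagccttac
Cd81: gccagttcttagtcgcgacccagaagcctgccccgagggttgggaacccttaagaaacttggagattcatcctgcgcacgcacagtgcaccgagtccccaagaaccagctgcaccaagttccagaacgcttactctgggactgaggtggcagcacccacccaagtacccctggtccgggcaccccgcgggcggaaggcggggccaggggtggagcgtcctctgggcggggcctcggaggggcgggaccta
The Cd72 sequence held 1 match, which ended 41 bases before the start site, and the Cd81 sequence held 0. Searched on both strands, this motif was present in 802 of 32851 upstream sequences of the same length, or 2.44%. A match describes the letters and does not show that PU.1 binds there.

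The 3 marker genes of the name led the cluster. Among genes seen in at least 25% of cluster 1 cells, Cd72, Vcam1 and Cd81 ranked 1, 2 and 3 by ratio to all other cells. Cd72 stood at 359 CPM in cluster 1 and 70.6 CPM in all other cells, and 52.7% of cluster 1 cells held a Cd72 UMI. Vcam1 stood at 153 CPM in cluster 1 against 34.1 CPM in all other cells, and Cd81 at 313 CPM against 70.4 CPM. Ms4a7, Rnase4, Igfbp4 and Tmem176b came next in that ranking. The macrophage genes Adgre1, which encodes F4/80, and C1qa, a chain of complement C1q, were at 279 and 5501 CPM in cluster 1, the highest of the 19 clusters. These genes took part in forming the cluster, so their levels describe it and test nothing.

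The markers were not shared by all cells of the cluster, nor held by it alone. Cells without a UMI of any of the 3 markers made up 43.6% of cluster 1 in the anti-PD-1 library, 30.7% in the anti-CTLA-4 library and 59.4% in the combination library, against 19.2% in the control library. Cluster 15, a small macrophage cluster, had more Cd72 (498 CPM) and more Cd81 (558 CPM) than cluster 1. Cluster 18, a tumour- or fibroblast-like cluster, had more Vcam1 (207 CPM). Cluster 2, another macrophage cluster, came next after cluster 1 in Vcam1, at 113 CPM.

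Cluster 1 was the main macrophage cluster of the control library and a minority in each treated one. It held 307 of 1256 macrophage cells after anti-PD-1, a share of 24.4% (exact binomial interval 22.1 to 26.9%). After anti-CTLA-4 it held 417 of 1411 (29.6%, 27.2 to 32.0%), and after the combination 254 of 1868 (13.6%, 12.1 to 15.2%). In the control library it held 1075 of 1521 macrophage cells (70.7%, 68.3 to 73.0%). Macrophage cells here are those of clusters 1, 2, 4, 7 and 15. As shares of all listed cells, cluster 1 made up 8.98%, 12.5% and 6.44% of the anti-PD-1, the anti-CTLA-4 and the combination libraries and 28.3% of the control library. Cluster 2 was instead the largest macrophage cluster of the treated libraries, with 549, 435 and 688 cells, against 159 in the control library.

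The genes that form the clusters differ between the groups, so these shares are a description and not a finding on cell numbers. When the macrophage cells were clustered again without the 50 genes that lead cluster 1, only 1 new cluster was made mostly of its cells. That new cluster held 19.6%, 28.9% and 8.73% of the anti-PD-1, the anti-CTLA-4 and the combination macrophages and 60.4% of the control macrophages. It took in 1357 of the 2053 cluster 1 cells, which were 78.2% of its 1736 cells. Another 520 fell into a mixed new cluster, where they were 38.4% of the cells. The order of the libraries was the same in both.

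**Figure D1:**
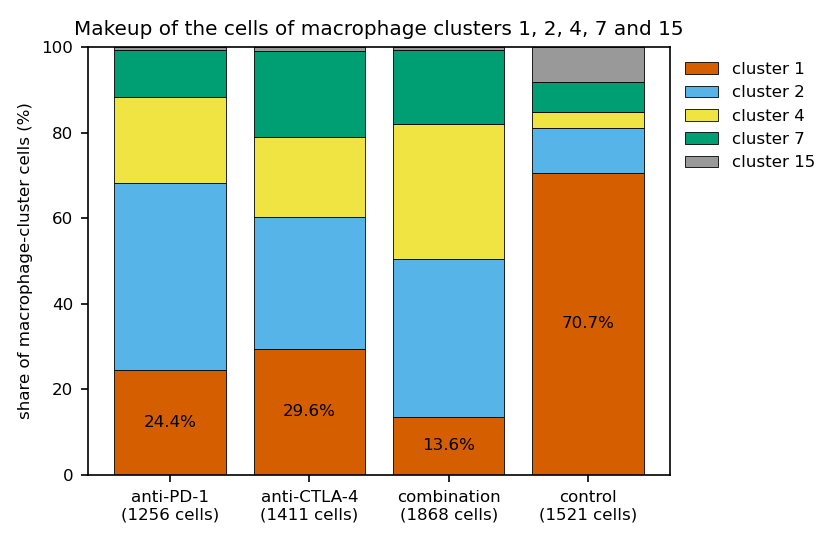
Share of macrophage-cluster cells (percent) held by clusters 1, 2, 4, 7 and 15 in the anti-PD-1, anti-CTLA-4, combination and control libraries, 1 library each. Cluster 1 holds 70.7% in control and 13.6 to 29.6% in the treated libraries.

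Against the other macrophage clusters summed, cluster 1 was higher in its markers, in Tmem176b and Fgd2 and in the lectins Clec10a and Mgl2, and lower in chemokine, inflammatory, hypoxia and matrix genes. The 7929 genes measured had at least 20 UMIs over the 2 sides in each of the 4 libraries. Of these, 76 (0.959%) were at least 2-fold higher in cluster 1 and 221 (2.79%) at least 2-fold lower. A gene was counted by the mean of 4 libraries, with the same sign in each. The clustering used these same genes, so nothing is read from the counts. Log2 ratios below are means over the 4 libraries, with the other clusters' cells summed.

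Of the 3 markers, Cd72 was at 214, 315 and 130 CPM in cluster 1 after anti-PD-1, after anti-CTLA-4 and after the combination and at 450 CPM in control. The other macrophage clusters had 94.7 CPM after anti-PD-1, 72.2 CPM after anti-CTLA-4, 28.0 CPM after the combination and 341 CPM in control. The mean log2 ratio was 1.48, with single libraries between 0.40 and 2.22. The lowest ratio was that of the control library, where cluster 15, with 624 CPM, held 126 of the 446 other macrophage cells. For Cd81 the mean log2 ratio was 1.18, and in the control library it was only 0.08. Without cluster 15 on the other side the means were 1.75 for Cd72, 1.41 for Cd81 and 1.07 for Vcam1.

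Vcam1 was at 143, 299 and 160 CPM in cluster 1 of the anti-PD-1, the anti-CTLA-4 and the combination libraries and at 107 CPM in control. The other macrophage clusters had 85.1 CPM after anti-PD-1, 104 CPM after anti-CTLA-4, 42.7 CPM after the combination and 75.5 CPM in control. The mean log2 ratio was 1.17, and cluster 1 was the higher side in all 4 libraries.

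Tmem176b, Tmem176a and Fgd2 had wider ratios than any of the 3 markers. Tmem176b, an intracellular cation channel of myeloid cells, was at 126 CPM after anti-PD-1, 166 CPM after anti-CTLA-4, 242 CPM after the combination and 191 CPM in control. The other macrophage clusters had 25.7 CPM after anti-PD-1, 21.1 CPM after anti-CTLA-4, 19.2 CPM after the combination and 116 CPM in control, for a mean log2 ratio of 2.41. Its neighbour and partner Tmem176a had a ratio of 2.31. Fgd2, an exchange factor for Cdc42 found in antigen-presenting cells, had a ratio of 2.17 and was 76.3 to 124 CPM in cluster 1 against 10.9 to 36.5 CPM in the others. Sepp1, which encodes the secreted selenium carrier selenoprotein P, was at 1075 CPM after anti-PD-1, 1215 CPM after anti-CTLA-4, 1039 CPM after the combination and 751 CPM in control, all in cluster 1, with a ratio of 1.41. Mef2c, a transcription factor of microglia and other macrophages, had a ratio of 1.38.

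The lectins Clec10a and Mgl2, both galactose-binding receptors of repair-type macrophages and some dendritic cells, had mean log2 ratios of 1.80 and 1.46. Dnase1l3, which digests DNA outside cells, had 1.52 and Pltp, a phospholipid transfer protein, 1.27. Retnla, a secreted product of interleukin-4-treated macrophages, had the largest ratio among genes that averaged at least 50 CPM, 2.97, but came from few cells: 12, 15 and 31 in the treated libraries and 2 in control. In the anti-PD-1 library 10 cells held 99.5% of its UMIs. Without cells that held at least 2 UMIs of T cell, NK cell, B cell and neutrophil markers, its ratio was 1.43. Clec10a and Mgl2 are closely related neighbouring genes, and counting may have split reads between them.

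Inhba, Cxcl1, Cxcl3 and Nos2 had some of the lowest ratios. Inhba, which encodes the activin A subunit, was at 5.50 CPM after anti-PD-1, 2.46 CPM after anti-CTLA-4, 14.6 CPM after the combination and 4.52 CPM in control, all in cluster 1. The other macrophage clusters had 157 CPM after anti-PD-1, 315 CPM after anti-CTLA-4, 319 CPM after the combination and 62.9 CPM in control, for a log2 ratio of -4.93. Nos2, the inducible nitric oxide synthase, was at 3.93 CPM after anti-PD-1, 4.91 CPM after anti-CTLA-4, 1.21 CPM after the combination and 1.64 CPM in control, all in cluster 1. The other macrophage clusters had 70.1 CPM after anti-PD-1, 121 CPM after anti-CTLA-4, 91.2 CPM after the combination and 31.9 CPM in control. It was seen in 5, 6 and 1 cells of treated cluster 1 and 6 cells of control cluster 1. The neutrophil-attracting chemokines Cxcl1 and Cxcl3 had ratios of -4.88 and -4.66, and Slpi, a secreted protease inhibitor, had -3.62.

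Arg1, the arginine-degrading enzyme of repair-type macrophages, was lower in cluster 1 too. It stood at 932 CPM after anti-PD-1, 506 CPM after anti-CTLA-4, 594 CPM after the combination and 228 CPM in control, all in cluster 1. The other macrophage clusters had 2334 CPM after anti-PD-1, 1975 CPM after anti-CTLA-4, 4558 CPM after the combination and 890 CPM in control. The mean log2 ratio was -2.05, or -2.79 with the libraries' counts pooled. Cd274, which encodes PD-L1, had -1.34, Ly6c2, a surface marker of inflammatory monocytes, -1.47, and Fth1, the ferritin heavy chain, -1.22. Ccr2, the receptor by which monocytes leave the marrow, went the other way at 0.76, and C1qa had 0.83.

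**Figure D2:**
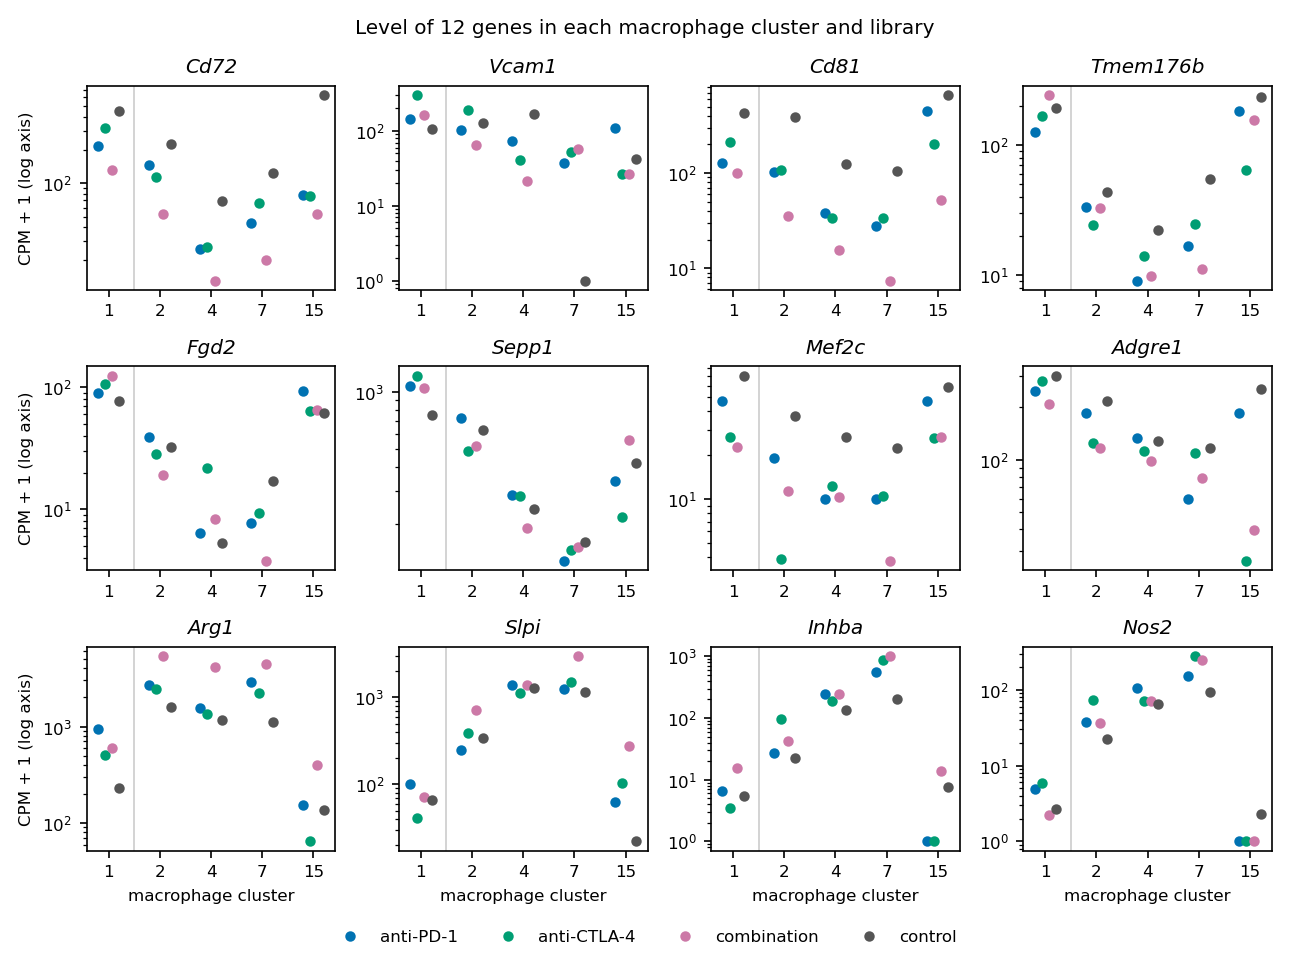
Level (CPM with 1 added, log axis) of 12 genes in macrophage clusters 1, 2, 4, 7 and 15, 1 point per library. Tmem176b, Fgd2 and Sepp1 are high in cluster 1, and Nos2 and Inhba sit near the floor there; cluster 15 has only 9 to 14 cells in a treated library.

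By gene list, 10 of 24 measured glycolysis and hypoxia genes were at least 2-fold lower in cluster 1 and 0 higher, with a median log2 ratio of -0.89, against 0.06 over all genes measured. Hilpda, a lipid droplet protein induced by low oxygen, was at -2.91, and Bnip3, a hypoxia-induced mitophagy receptor, at -1.84. Of 16 matrix remodelling genes 7 were lower and 0 higher (median -0.94), among them the metalloproteases Mmp12 at -3.86 and Mmp8 at -3.55 (-1.99 without cells that held other types' markers, a list that includes Mmp8). Of 18 inflammatory genes 6 were lower and 0 higher (median -0.81), and of 18 chemokines 8 were lower and 0 higher (median -0.85). Of 36 interferon-induced genes 9 were lower and 0 higher (median -0.48), with the antiviral genes Rsad2 at -4.18 and Ifit1 at -2.92.

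MHC class II, ribosomal and mitochondrially encoded genes lay mostly higher in cluster 1, by less than 2-fold. Of 13 measured MHC class II genes 12 were higher, 10 of them in all 4 libraries, 0 were 2-fold apart and the median was 0.33, with Ciita, the master activator of that set, at 0.95 and H2-Ab1, a class II chain, at 0.22. All 22 cytosolic ribosomal protein genes measured had a mean ratio above 0, 18 of them in all 4 libraries (median 0.23), and so did all 13 mitochondrially encoded genes, 10 of them in all 4 libraries (median 0.31). The complement list had a median of 0.36, the resident and microglia-like list 0.38 and the oxidative phosphorylation list 0.12. Of 13 resident and microglia-like genes measured, 11 lay above 0 and 2 below it, among them Tmem119 at -0.78 (single libraries -2.29 to 0.24). Of 17 proliferation genes 6 were lower (median -0.77). Ube2c, Birc5 and Rrm2, which act in cell division and DNA synthesis, were at 0.18, 0.05 and 1.13 without cluster 15, and the list's median was then 0.26. Of 16 alternatively activated genes 4 were higher and 4 lower (median 0.09), so the list was split.

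Within cluster 1, Cd72 and Cd81 were lower in each treated library than in the control library, while the level of Vcam1 was higher, most of all after anti-CTLA-4. All 3 antibody comparisons, here and below, share the 1 control library, so they are not independent of each other. The 214, 315 and 130 CPM of Cd72 after anti-PD-1, after anti-CTLA-4 and after the combination came from 273, 513 and 107 UMIs, and the 450 CPM in control from 2189 UMIs. The log2 ratios to control were -1.07 (-1.26 to -0.89), -0.51 (-0.66 to -0.37) and -1.79 (-2.09 to -1.51). Cd81 was at 126 CPM after anti-PD-1, 211 CPM after anti-CTLA-4, 99.6 CPM after the combination and 432 CPM in control, with ratios of -1.77, -1.03 and -2.11. Both genes were lowest in the combination and highest in control, and none of these intervals held 0.

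Vcam1 did not follow them. Its log2 ratios to control were 0.43 (0.17 to 0.67) after anti-PD-1, 1.49 (1.31 to 1.67) after anti-CTLA-4 and 0.59 (0.30 to 0.87) after the combination. In the combination 51 cells held Vcam1, of which 10 held 59.8% of its UMIs. The anti-CTLA-4 library, at 299 CPM, stood above the other 3 libraries, which lay between 107 and 160 CPM.

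The markers were also counted as shares of cells at one depth. With every cell thinned to 1000 UMIs, which left out 19, 11 and 18 treated cells and 3 control cells, Cd72 was seen in 15.6% of cells after anti-PD-1, 21.9% after anti-CTLA-4, 10.6% after the combination and 30.3% in control. Without thinning, at the higher median depths given above, the shares were 36.8% of cells after anti-PD-1, 50.4% after anti-CTLA-4, 23.6% after the combination and 64.9% in control. Cells of the T cell-like clusters, which should lack Cd72 and whose median depths were 1698 to 2345 UMIs, showed it in 1.60% of cells after anti-PD-1, 2.05% after anti-CTLA-4, 0.723% after the combination and 3.26% in control at the same thinned depth. Cd72 was therefore above the T cell level in every library and most frequent in control. Cd81 was seen in 6.94% of thinned cells after anti-PD-1, 13.8% after anti-CTLA-4, 7.63% after the combination and 26.1% in control (22.5% of cells after anti-PD-1, 30.0% after anti-CTLA-4, 14.2% after the combination and 55.8% in control without thinning). T cells carry Cd81 themselves, and the T cell-like clusters showed it in 2.72% of thinned cells after anti-PD-1, 2.60% after anti-CTLA-4, 3.07% after the combination and 3.98% in control. Vcam1 was seen in 9.72% of thinned cells after anti-PD-1, 20.7% after anti-CTLA-4, 9.75% after the combination and 7.46% in control (25.4% of cells after anti-PD-1, 40.3% after anti-CTLA-4, 20.1% after the combination and 20.4% in control without thinning). The T cell-like clusters showed Vcam1 in 0.0904 to 0.452% of thinned cells. The Vcam1 share had an upper bound of 9.20% in control, below the lower bound of 16.9% after anti-CTLA-4 and above those of 6.56% after anti-PD-1 and 6.28% after the combination.

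Across all genes in cluster 1, 280 (3.11%) of 8994 measured were called higher after anti-PD-1 than in control and 334 (3.71%) lower, where a call is a ratio of at least 2-fold with an interval without 0. After anti-CTLA-4, 350 (3.84%) of 9103 were higher and 472 (5.19%) lower. After the combination, 338 (3.81%) of 8871 were higher and 493 (5.56%) lower. Calls follow depth as well as size, so the 3 counts are not ranked.

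Products of repair-type macrophages were among the widest differences on the higher side. Ccl24, a chemokine for eosinophils, was at 738 CPM after anti-PD-1, 265 CPM after anti-CTLA-4, 140 CPM after the combination and 4.52 CPM in control. Its log2 ratios were 7.32, 5.84 and 4.92, and 92, 70 and 34 treated cells held it, against 16 control cells. Mgl2 was at 121 CPM after anti-PD-1, 154 CPM after anti-CTLA-4, 151 CPM after the combination and 32.5 CPM in control, with ratios of 1.90, 2.24 and 2.21. Clec10a was at 69.9 CPM after anti-PD-1, 84.2 CPM after anti-CTLA-4, 223 CPM after the combination and 16 CPM in control, and the combination had the highest ratio, 3.79 (3.41 to 4.20). Chil3, a chitinase-like protein of monocytes and lung macrophages, had ratios of 3.22, 1.96 and 3.38, the combination's at 2.51 without the shallow sub-cluster 3 described with the sub-clusters. In the other macrophage clusters, Ccl24 was seen in 26.1%, 9.08% and 3.44% of treated thinned cells and 0.225% of control thinned cells. The Ccl24 difference was thus not particular to cluster 1. In the combination, Mgl2 (1.10%) and Clec10a (1.23%) were near their control shares there (1.35% each).

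Other genes with wide ratios have less settled roles in macrophages. Nov, a secreted matrix-associated protein, was at 235 CPM after anti-PD-1, 378 CPM after anti-CTLA-4, 47.4 CPM after the combination and 13.2 CPM in control. Apol7c, an apolipoprotein L family member found in dendritic cells, was at 66.7 CPM after anti-PD-1, 177 CPM after anti-CTLA-4, 43.7 CPM after the combination and 8.02 CPM in control. Saa3, an acute-phase protein, was at 145 CPM after anti-PD-1, 19.0 CPM after anti-CTLA-4, 57.1 CPM after the combination and 13 CPM in control, and F10, coagulation factor X, at 124 CPM after anti-PD-1, 162 CPM after anti-CTLA-4, 242 CPM after the combination and 34.1 CPM in control. Of the Nov UMIs, 10 cells held 76.9% after anti-PD-1, 47.4% after anti-CTLA-4, 89.7% after the combination and 70.3% in control. Of the Saa3 UMIs, 10 cells held 73.5%, 51.6% and 89.4% in those treated libraries and 63.5% in control. In the combination 14 cells held Nov and 15 held Saa3. Retnla was at 294 CPM after anti-PD-1, 246 CPM after anti-CTLA-4, 1484 CPM after the combination and 3.70 CPM in control, from the few cells counted above. In the other macrophage clusters, Nov was seen in 21.3%, 12.2% and 4.86% of treated thinned cells and 2.25% of control thinned cells. The Nov difference was thus not particular to cluster 1.

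Arg1 was higher than control in all 3 treated libraries, with log2 ratios of 2.03 (1.91 to 2.15), 1.15 (1.02 to 1.28) and 1.38 (1.22 to 1.54). Mrc1, the mannose receptor, was at 301 and 305 CPM after anti-PD-1 and the combination and 157 CPM after anti-CTLA-4, against 214 CPM in control. By level, the mannose receptor thus lay above control in 2 treated libraries and below it in the anti-CTLA-4 library. In the combination 103 cells held Mrc1, of which 10 held 45.4% of its UMIs. Its share of cells there was 18.2% thinned and 40.6% without thinning, against 17.5% and 48.3% in control. Of 17 measured alternatively activated genes, 9 were called higher and 0 lower after anti-PD-1 (median 1.90), and of 17 after the combination, 10 higher and 0 lower (median 1.38). After anti-CTLA-4 7 of 15 were higher and 2 lower, with a median of 0.00. In the other macrophage clusters, Arg1 was seen in 58.5%, 53.7% and 76.2% of treated thinned cells and 31.2% of control thinned cells. The Arg1 difference was thus not particular to cluster 1.

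**Figure D3:**
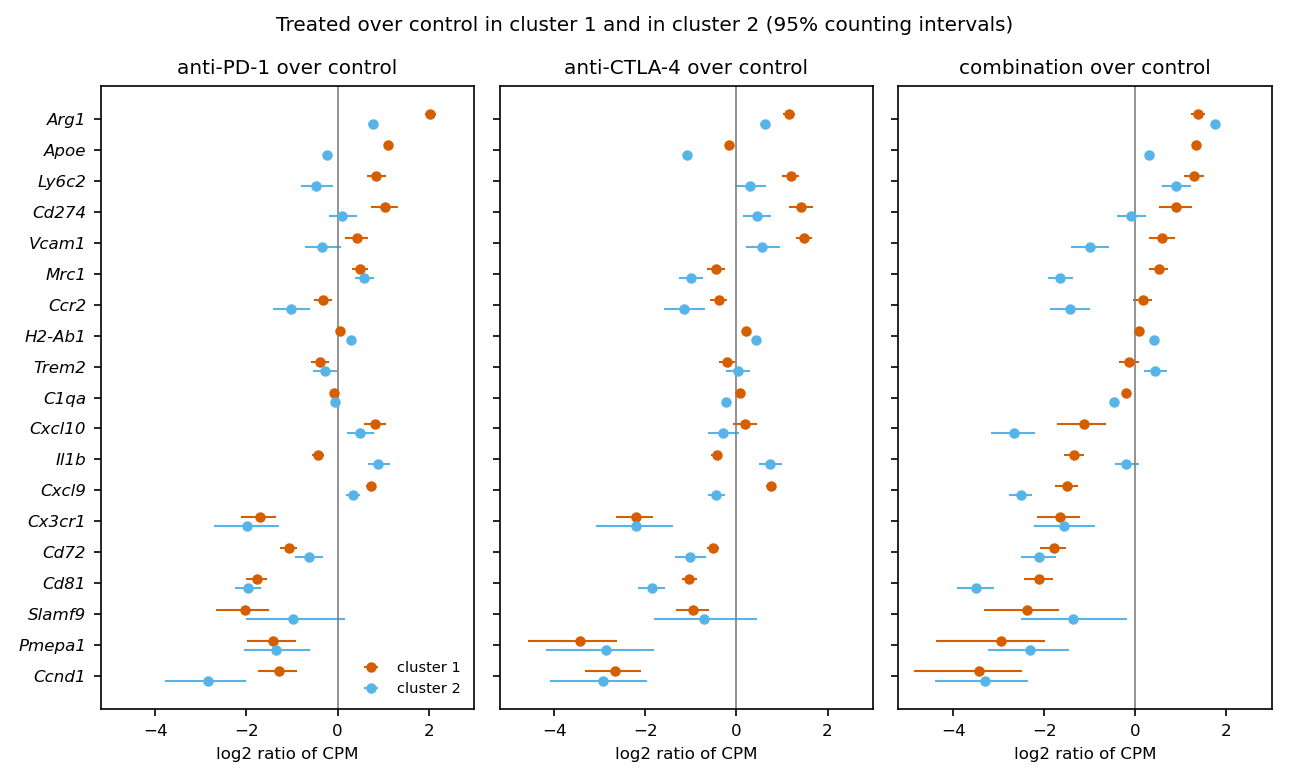
Log2 ratio to control of 19 genes in cluster 1 and in cluster 2 in the anti-PD-1, the anti-CTLA-4 and the combination libraries; bars are 95% counting intervals. Cd72, Cd81 and Cx3cr1 lie below 0 and Arg1 above 0 in cluster 1 in all 3 libraries, while Vcam1 in the combination lies on opposite sides in the 2 clusters.

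Several chemokines were also higher. Ccl8, a chemokine that draws monocytes and T cells, was at 22130 CPM after anti-PD-1, 19296 CPM after anti-CTLA-4, 14225 CPM after the combination and 4845 CPM in control, all in cluster 1, with ratios of 2.19, 1.99 and 1.55. At 1000 UMIs a cell it was seen in 63.9% of cells after anti-PD-1, 69.5% after anti-CTLA-4, 49.6% after the combination and 38.8% in control. Cells of the T cell-like clusters showed it in 24.8% of cells after anti-PD-1, 10.9% after anti-CTLA-4, 6.51% after the combination and 6.24% in control. Ccl6 was at 631 CPM after anti-PD-1, 431 CPM after anti-CTLA-4, 1843 CPM after the combination and 204 CPM in control, and its ratio in the combination was 3.17 (3.06 to 3.29).

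The chemokines that draw T cells through CXCR3 split by treatment. Cxcl9 was at 798 CPM after anti-PD-1, 811 CPM after anti-CTLA-4, 169 CPM after the combination and 481 CPM in control. Its log2 ratios were 0.73 (0.62 to 0.84), 0.75 (0.66 to 0.85) and -1.51 (-1.77 to -1.26). Cxcl10 had ratios of 0.83 (0.58 to 1.07), 0.19 (-0.08 to 0.45) and -1.13 (-1.71 to -0.64). The Cxcl10 level in the combination came from 33 UMIs in 18 cells, of which 10 cells held 75.8%. Its share of thinned cells was 4.24% in the combination (2.05 to 7.65%), against 4.10% in control (3.00 to 5.47%). Without thinning the shares were 7.09% and 10.8%. The thinned interval of the combination is wide, so these shares do not settle whether fewer cells held it. Cxcl13, which guides B cells, was at 4.71 CPM after anti-PD-1, 181 CPM after anti-CTLA-4, 1.21 CPM after the combination and 265 CPM in control, but 2, 6 and 1 treated cells and 65 control cells held it. Its ratio in the combination, -7.19 (-13.08 to -5.29), rests on 1 UMI there.

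The wider interferon-induced list had a median above that of all genes after each single antibody and near it in the combination. Gbp4, a guanylate-binding protein of cell defence, had log2 ratios of 1.65, 1.40 and 0.62, and Gbp2, of the same family, 1.07, 1.01 and -0.23 (-0.59 to 0.11). Of 35 interferon-induced genes measured, 4 were called higher and 0 lower after anti-PD-1 (median 0.50), 3 higher and 1 lower after anti-CTLA-4 (median 0.48), and 1 higher and 3 lower in the combination (median -0.05). All genes measured had medians of -0.05, -0.07 and -0.08. Cd274 was higher than control in all 3 treated libraries, with ratios of 1.04 (0.73 to 1.33), 1.41 (1.16 to 1.67) and 0.89 (0.52 to 1.25). Pdcd1lg2, which encodes the second PD-1 ligand, was at 88.7 CPM after anti-PD-1, 96.4 CPM after anti-CTLA-4, 53.4 CPM after the combination and 14.8 CPM in control.

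MHC class I genes lay mostly above control, each by less than 2-fold. Of 19 measured, 17, 18 and 17 had ratios above 0 after anti-PD-1, after anti-CTLA-4 and after the combination, 14, 17 and 10 with an interval above 0 and 0 with one below it. Their medians were 0.29, 0.47 and 0.24, and 0 were called. Of 13 class II genes, 0 were called higher and 2 lower after anti-PD-1, 1 higher and 0 lower after anti-CTLA-4, and 0 higher and 1 lower in the combination. H2-Ab1 was at 21435 CPM after anti-PD-1, 23951 CPM after anti-CTLA-4, 21790 CPM after the combination and 20575 CPM in control. C1qa, at 5287 CPM after anti-PD-1, 5857 CPM after anti-CTLA-4, 4795 CPM after the combination and 5558 CPM in control, had log2 ratios of -0.07, 0.08 and -0.21.

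The genes that were higher in control cluster 1 included several of microglia and other resident macrophages. Cx3cr1, the fractalkine receptor, was at 47.9 CPM after anti-PD-1, 33.8 CPM after anti-CTLA-4, 49.8 CPM after the combination and 158 CPM in control, with log2 ratios of -1.71 (-2.12 to -1.34), -2.21 (-2.64 to -1.83) and -1.65 (-2.15 to -1.21). Tmem119, a surface protein used to mark microglia, was at 14.9 CPM after anti-PD-1, 11.1 CPM after anti-CTLA-4, 6.07 CPM after the combination and 73.2 CPM in control. Hpgds, which makes prostaglandin D2, was at 17.3 CPM after anti-PD-1, 16.6 CPM after anti-CTLA-4, 7.29 CPM after the combination and 52.6 CPM in control. Crabp1, a retinoic acid carrier, had 0 UMIs in the combination library against 53.1 CPM in control, at least 14.6-fold lower when set against a floor of 3 UMIs in that library. Trem2, a lipid receptor of the same cells, differed far less, with ratios of -0.38 (-0.59 to -0.19), -0.20 (-0.38 to -0.04) and -0.13 (-0.36 to 0.08). Of 21 resident and microglia-like genes measured, 6, 5 and 8 were called lower in the treated libraries and 0, 0 and 1 higher. The higher one was Ltc4s, at 2.81 (2.09 to 3.54) in the combination against control. Against anti-PD-1 and anti-CTLA-4 the combination had Ltc4s ratios of 2.99 and 3.55. In the other macrophage clusters, Cx3cr1 was seen in 0.749%, 1.86% and 1.69% of treated thinned cells and 7.64% of control thinned cells. The Cx3cr1 difference was thus not particular to cluster 1. Hpgds was seen there in 0.642%, 0.310% and 0.195% of treated thinned cells, near the 0.674% of control.

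Cell cycle genes were lower too. Ccnd1, the G1 cyclin D1, was at 40.0 CPM after anti-PD-1, 15.4 CPM after anti-CTLA-4, 8.50 CPM after the combination and 98.7 CPM in control, with ratios of -1.29, -2.66 and -3.44. Of 19 proliferation genes measured, 10 were called lower and 0 higher in each of the 3 treated libraries, with medians of -1.16, -1.09 and -1.37. Of 13 G1 cyclin and growth genes, 2, 4 and 6 were called lower and 0 higher, with medians of -0.09, -0.23 and -1.14. Birc5, a mitosis and survival protein, was among those with the lowest ratios in all 3. Pmepa1, a target of TGF-beta signalling, was at 25.9 CPM after anti-PD-1, 6.14 CPM after anti-CTLA-4, 8.50 CPM after the combination and 69.9 CPM in control. Of 19 TGF-beta pathway genes, 3, 5 and 5 were called lower and 1, 0 and 0 higher, with medians of -0.17, -0.43 and -0.18. The higher one was Id1, at 2.95 (2.28 to 3.67) after anti-PD-1, while after anti-CTLA-4 it was at -1.45 (-4.01 to 0.05). Tgfbr1, the type I receptor, had ratios of -1.59, -1.42 and -1.53. In the other macrophage clusters, Ccnd1 was seen in 0.963%, 0.826% and 0.324% of treated thinned cells and 7.64% of control thinned cells. The control cells there include 126 of cluster 15. The Ccnd1 difference was thus not particular to cluster 1.

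Some inhibitory receptors beside Cd72 were lower, and their list as a whole was mixed. Cd33, an inhibitory sialic-acid-binding lectin, was at 70.7 CPM after anti-PD-1, 36.9 CPM after anti-CTLA-4, 23.1 CPM after the combination and 135 CPM in control, and Siglece, of the same family, at 10.2, 4.91 and 4.86 CPM against 32.9 CPM in control. Of 17 measured inhibitory receptors with an ITIM, 2, 3 and 3 were called lower and 0 higher, and 8, 7 and 7 had ratios above 0, with medians of -0.01, -0.21 and -0.39. Cd14, the co-receptor for bacterial lipopolysaccharide, was at 688 CPM after anti-PD-1, 471 CPM after anti-CTLA-4, 561 CPM after the combination and 1358 CPM in control. Slamf9, a receptor of the SLAM family, had ratios of -2.04, -0.95 and -2.38. Spp1, which encodes osteopontin, was at 27.5 CPM after anti-PD-1, 23.3 CPM after anti-CTLA-4, 14.6 CPM after the combination and 124 CPM in control.

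Of 16 monocyte genes measured, 4 were called higher in each treated library and 1, 4 and 1 lower after anti-PD-1, after anti-CTLA-4 and after the combination, with medians of 0.63, 0.17 and 0.62. Of 17 inflammatory genes, 1, 3 and 3 were called higher and 0, 0 and 1 lower, with medians of 0.35, 0.08 and 0.00, and 14, 9 and 8 had ratios above 0. Ly6c2 was at 212 CPM after anti-PD-1, 268 CPM after anti-CTLA-4, 287 CPM after the combination and 118 CPM in control, all in cluster 1, and Ccr2 at 195 CPM after anti-PD-1, 186 CPM after anti-CTLA-4, 270 CPM after the combination and 242 CPM in control, all in cluster 1. T cells also express Ly6c2, and its close copy Ly6c1 may share its reads; it was seen in 30.5 to 36.0% of thinned cells of the T cell-like clusters. Il1b, the cytokine interleukin-1 beta, was at 423 CPM after anti-PD-1, 423 CPM after anti-CTLA-4, 223 CPM after the combination and 570 CPM in control, all in cluster 1. Tnf, at 19.6 CPM after anti-PD-1, 11.7 CPM after anti-CTLA-4, 20.6 CPM after the combination and 15 CPM in control, had intervals that held 0 in all 3 comparisons. C3, the central complement component, was at 310 CPM after anti-PD-1, 367 CPM after anti-CTLA-4, 322 CPM after the combination and 123 CPM in control.

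**Figure D4:**
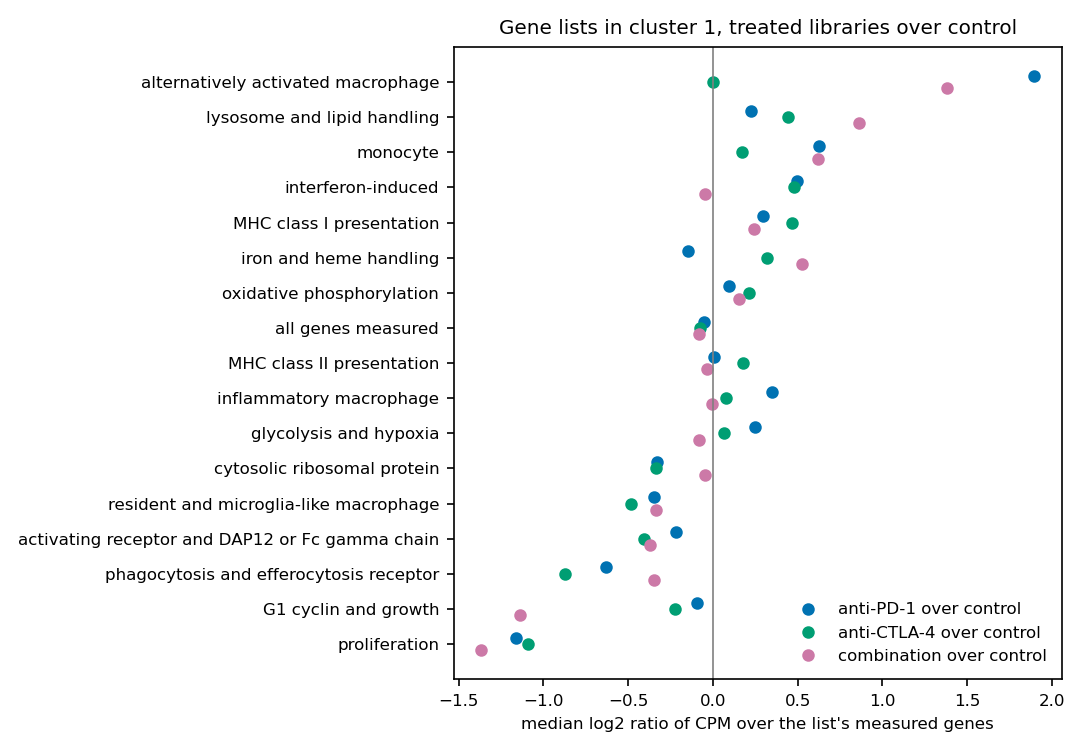
Median log2 ratio to control of 16 gene lists and of all genes measured in cluster 1, for the anti-PD-1, the anti-CTLA-4 and the combination libraries. Proliferation lies lowest at -1.09 to -1.37, and the alternatively activated list is high after anti-PD-1 and the combination but at 0.00 after anti-CTLA-4.

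Set against both single antibodies, the combination library had more Lpl, Lipa, Klf2 and Clec10a in cluster 1 and less Cd72, Cxcl9 and Cxcl10. Of 6447 genes measured against anti-PD-1, 239 (3.71%) were called higher in the combination and 298 (4.62%) lower. Against anti-CTLA-4, 280 (4.06%) of 6889 were higher and 350 (5.08%) lower. Both comparisons use the same combination library. Cd72 had log2 ratios of -0.72 (-1.06 to -0.39) to anti-PD-1 and -1.27 (-1.59 to -0.98) to anti-CTLA-4. Cd81 was lower against anti-CTLA-4, at -1.07 (-1.45 to -0.73), and against anti-PD-1 its interval held 0, at -0.34 (-0.75 to 0.05). Cxcl9 was at -2.24 and -2.26 and Cxcl10 at -1.96 and -1.32 against anti-PD-1 and anti-CTLA-4. Clec10a was at 1.67 (1.30 to 2.06) and 1.41 (1.08 to 1.74), with 60.3% of its combination UMIs in 10 cells. Its share of thinned cells was 11.4% in the combination (7.68 to 16.2%). After anti-PD-1 it was 7.29% (4.57 to 10.9%) and after anti-CTLA-4 6.90% (4.63 to 9.81%), so the intervals overlapped.

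Lpl, the lipoprotein lipase, was at 129 CPM in the combination library, against 16.5 CPM after anti-PD-1 and 13.5 CPM after anti-CTLA-4, and at 21.2 CPM in control. It was seen in 33 combination cells, of which 10 held 71.7% of its UMIs, and in 31 control cells, of which 10 held 79.6%. Lipa, the lysosomal lipase, was at 119 CPM in the combination library, against 53.4 and 49.8 CPM after the single antibodies and 36.0 CPM in control. Its log2 ratio to control was 1.73 with all cells and 0.97 without sub-cluster 3. Of the lysosome and lipid handling list, 5 of 19 genes were called higher and 0 lower against anti-PD-1, and 5 of 21 higher and 0 lower against anti-CTLA-4. Apoe, the lipid carrier apolipoprotein E, was at 2821 CPM in the combination library, against 2412 CPM after anti-PD-1, 999 CPM after anti-CTLA-4 and 1116 CPM in control. Klf2, a transcription factor of quiescence, was at 1083 CPM in the combination library, against 433 and 494 CPM after the single antibodies and 256 CPM in control. In the immediate early and digestion list, 18 of 20 genes had ratios above 0 in the combination against control and 2 below it. The median was 0.53, against -0.08 over all genes measured. Of the 20, 4 were called higher and 0 lower, with Egr1 at 1.88. Against anti-PD-1 and anti-CTLA-4, 15 and 17 of 20 lay above 0, with medians of 0.55 and 0.46. The part of tissue digestion in these levels was not tested.

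Cluster 1 was made of parts that differed in weight between the libraries. Clustered on their own, its cells fell into 4 sub-clusters, numbered 0 to 3. Sub-cluster 1 (518 cells) was led by Ccl24, Apol7c, Mgl2, Serpina3g and Ccl8 and made up 43.0%, 58.0% and 37.0% of cluster 1 after anti-PD-1, after anti-CTLA-4 and after the combination, against 4.65% in control. Sub-cluster 2 (301 cells) was led by Ccnd1, Pmepa1, Cx3cr1 and Hpgds and made up 2.61% of cluster 1 after anti-PD-1, 1.68% after anti-CTLA-4, 0.394% after the combination and 26.5% in control. Sub-cluster 0 (740 cells), led by Il1r2, the decoy receptor of interleukin-1, and Thbs1, a matrix glycoprotein, made up 27.7% of cluster 1 after anti-PD-1, 13.4% after anti-CTLA-4, 17.3% after the combination and 51.6% in control. Sub-cluster 3 (494 cells) was shallow, with a median of 1630 UMIs against 4587 to 5434 in the others, and was led by Gm42418. It made up 26.7% of cluster 1 after anti-PD-1, 26.9% after anti-CTLA-4, 45.3% after the combination and 17.2% in control. The neutrophil marker list also holds Il1r2, and the part of such cells in sub-cluster 0 was not tested. The largest sub-cluster was thus 1 after each single antibody, 3 after the combination and 0 in control, and every treated-to-control ratio above sums over them.

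In sub-clusters 0, 1 and 3, Cd72 and Cd81 were again lower in the treated libraries. Sub-cluster 2 held 8, 7 and 1 treated cells, and its values are not compared. The smallest groups compared were the 50 control cells of sub-cluster 1 and the 44 combination cells of sub-cluster 0. Cd72 in sub-cluster 1 was at 240 CPM after anti-PD-1, 307 CPM after anti-CTLA-4, 152 CPM after the combination and 389 CPM in control, and in sub-cluster 0 at 183 CPM after anti-PD-1, 176 CPM after anti-CTLA-4, 110 CPM after the combination and 335 CPM in control. Cd81 in sub-cluster 1 was at 141 CPM after anti-PD-1, 242 CPM after anti-CTLA-4, 121 CPM after the combination and 314 CPM in control, and in sub-cluster 0 at 92.5 CPM after anti-PD-1, 70.5 CPM after anti-CTLA-4, 49.5 CPM after the combination and 343 CPM in control. In sub-cluster 3, with 82, 112 and 115 treated cells and 185 control cells, Cd72 was at 152 CPM after anti-PD-1, 267 CPM after anti-CTLA-4, 98.3 CPM after the combination and 328 CPM in control. Cd81 there was at 36.1 CPM after anti-PD-1, 111 CPM after anti-CTLA-4, 84.3 CPM after the combination and 219 CPM in control. In these 3 sub-clusters Cd72 was thus highest in control and lowest in the combination. Vcam1 was not higher throughout: in sub-cluster 1 it was at 194 CPM after anti-PD-1, 378 CPM after anti-CTLA-4, 244 CPM after the combination and 296 CPM in control. Mgl2 in sub-cluster 1 was at 207 CPM after anti-PD-1, 191 CPM after anti-CTLA-4, 278 CPM after the combination and 190 CPM in control, close together beside the difference seen over the whole cluster.

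Ccl24 and Arg1 differed inside the sub-clusters as well. In sub-cluster 1 Ccl24 was at 1307 CPM after anti-PD-1, 351 CPM after anti-CTLA-4, 206 CPM after the combination and 35.4 CPM in control, and Arg1 at 1062 CPM after anti-PD-1, 444 CPM after anti-CTLA-4, 515 CPM after the combination and 217 CPM in control. In sub-cluster 0 Arg1 was at 640 CPM after anti-PD-1, 921 CPM after anti-CTLA-4, 1062 CPM after the combination and 279 CPM in control. Apoe in sub-cluster 1 was at 3144 CPM after anti-PD-1, 1239 CPM after anti-CTLA-4, 3264 CPM after the combination and 5104 CPM in control, below control where the whole cluster was above it after anti-PD-1 and the combination.

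**Figure D5:**
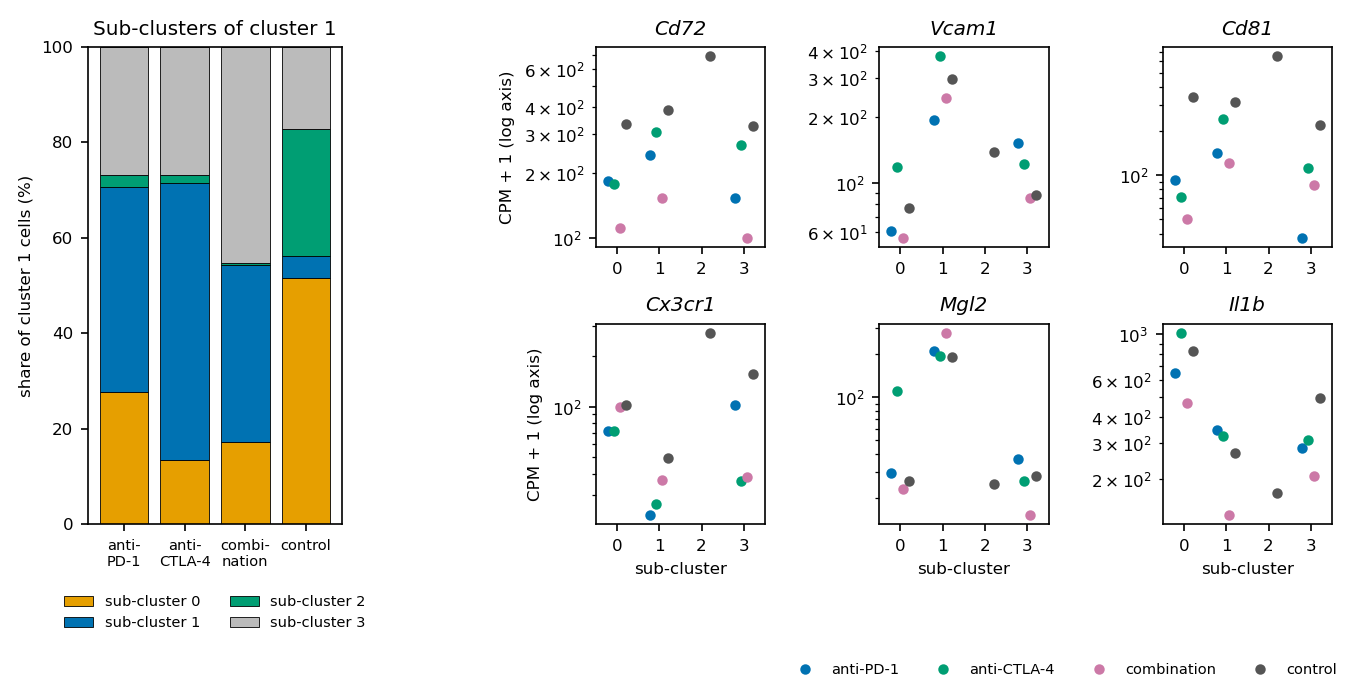
Share of cluster 1 cells (percent) in sub-clusters 0 to 3 for the anti-PD-1, anti-CTLA-4, combination and control libraries, and level (CPM with 1 added, log axis) of 6 genes in sub-clusters with at least 20 cells of a library. Sub-cluster 1 holds 37.0 to 58.0% of treated cells and 4.65% of control cells.

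Markers of other cell types were measured in cluster 1 beside the clusters they define. At least 2 UMIs of T cell, NK cell, B cell and neutrophil markers were held by 71 of 307, 91 of 417 and 37 of 254 cluster 1 cells after anti-PD-1, after anti-CTLA-4 and after the combination, and by 329 of 1075 in control. Values with bounds clear of 0 that changed sign without these cells are given with the alternatives. T cell markers summed to 41.2 to 64.4 CPM over the 4 libraries, against 5589 to 6942 CPM in the T cell-like clusters, and neutrophil markers to 124 to 214 CPM, against 27956 to 57835 CPM in the neutrophil-like cluster. Markers of conventional dendritic cells, which share Clec10a and Mgl2 with macrophages, summed to 327 to 504 CPM, against 854 to 1270 CPM in the dendritic cell-like cluster 11. The defining dendritic genes Flt3, Zbtb46, Xcr1, Clec9a and Cd209a were at 0 to 3.69 CPM in cluster 1. The mast cell protease Cma1 had 3.14 CPM after anti-PD-1, 37.5 CPM after anti-CTLA-4, 3.64 CPM after the combination and 54.1 CPM in control, all in cluster 1, from 4, 8 and 3 treated cells and 9 control cells, and its part in other values was not tested. Of all cells, Scrublet's own threshold called 2 as doublets, so cells with the highest 3% of scores were left out as an alternative instead; 6, 3 and 0 treated and 17 control cluster 1 cells were among them.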

How the data were processed

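Tumour-infiltrating CD45+ cells of 4 mouse libraries, 1 per antibody group, were analysed. The deposited files hold unnormalized UMI counts for 27998 genes in each barcode; Cell Ranger, Seurat and mm10 are named in the submitters' processing notes, with versions and filters not given in the sources used here. Of 14493 cells in the authors' deposited cluster table, 2 had no matrix column and 14491 were used; library and barcode joined the files. The listed cells held 11176246 to 13374294 UMIs per library, and a gene at 10 CPM in cluster 1 therefore rests on few counts in the treated libraries.

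UMIs were summed per library and cluster. Log2 ratios had 0.5 added to each count and an exact conditional binomial 95% interval, and shares a Clopper-Pearson interval. Genes needed at least 20 UMIs over both sides, and in each library for cluster 1 against the other macrophage clusters. Code was tested on simulated data. Sub-clusters were made with Leiden clustering in scanpy 1.11.5 (20 principal components, 15 neighbours, resolution 0.4), other steps with numpy 2.4.6, scipy 1.17.1 and pandas 2.3.3 under Python 3.11.15. The macrophage cells were clustered again at resolution 0.5. The members, gene lists and comparisons were chosen with earlier results of these data known. Named genes were 22 key genes, the 20 highest and 10 lowest ratios of cluster 1 to the other macrophage clusters, the 8 highest and 8 lowest per treated library, and up to 4 members per list. Serpina3g and Gm42418, which lead sub-clusters, were named after their values were seen, as was the choice among the genes the rule gives. Barcodes shared between libraries were counted, and doublets were left in, with the highest 3% of Scrublet scores left out as an alternative. Alternatives covered scaling, depth, weighting of cells, doublets, other types' markers, count minimum and pseudocount.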

Additional observations from a re-analysis of the deposited data

Results flagged for a closer look

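In 8 of 66 ratios of key genes (22 genes in 3 treated libraries), cluster 1 and cluster 2, the largest macrophage cluster of the treated libraries, lay on opposite sides of control with both counting intervals clear of 0. The difference between the clusters was not tested, since each group is 1 library. In the combination, the log2 ratio of Vcam1 was 0.59 in cluster 1 and -1.0 in cluster 2, and that of the mannose receptor gene Mrc1 was 0.51 in cluster 1 and -1.64 in cluster 2. In cluster 1 of that library, 10 cells held 59.8% of the Vcam1 UMIs and 10 cells held 45.4% of the Mrc1 UMIs. After anti-PD-1, Apoe was at 1.11 in cluster 1 and -0.24 in cluster 2, Ly6c2 at 0.85 in cluster 1 and -0.46 in cluster 2, and Il1b at -0.43 in cluster 1 and 0.90 in cluster 2. After anti-CTLA-4, Cxcl9 was at 0.75 in cluster 1 and -0.44 in cluster 2, C1qa at 0.076 in cluster 1 and -0.22 in cluster 2, and Il1b at -0.43 in cluster 1 and 0.73 in cluster 2. C1qa after anti-CTLA-4 changed sign in cluster 1 under 1 alternative. Cluster 2 held 159 control cells, against 1075 in cluster 1.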

How the results depend on the processing

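Over single genes and list medians, 6601 values were recomputed under alternatives. Of these, 6018 stayed within the main value's bounds, 570 moved outside them and 13 with bounds clear of 0 changed sign. Bounds were the counting interval between antibody groups, the range over 4 libraries between clusters, and the members' median half-width for list medians. Sign changes of values whose bounds held 0, such as the proliferation median without cluster 15, are not in the 13. Leaving out each gene's highest 5% of cells kept 148 values in bounds, moved 211 out and reversed 1. Thinning to 1000 UMIs kept 612, moved 144 out and reversed 3. Without cluster 15 on the other side, the cluster ratios were 0.18 for Ube2c, 0.053 for Birc5 and 1.13 for Rrm2. Against control after anti-PD-1, median-of-ratios scaling put C1qa at 0.00073, thinning to 1000 UMIs put Prdm1 at 0.39 and Igf1 at -0.61, and leaving out each gene's highest 5% of cells put Hmox1 at 0.25. After anti-CTLA-4, thinning put H2-DMb2 at -0.013, the mean over cells put Trem2 at 0.15, and leaving out cells with other types' markers put C1qa at -0.0050 and the chemokine median at 0.012. In the combination, that last choice put Ctsk at -0.50, and leaving out sub-cluster 3 put Ice1 at -0.16. The cause of these was not tested. Leaving out each gene's highest 5% of cells, and leaving out sub-cluster 3, were chosen after seeing the data. Without the 50 leading genes, the new cluster of mostly cluster 1 cells held 19.6% after anti-PD-1, 8.73% after the combination and 60.4% in control. With cluster 0 in the denominator, the cluster 1 share was 14.3%, 20.3%, 11.9% and 52.9% in the anti-PD-1, anti-CTLA-4, combination and control libraries. Thinned cells gave 344, 499 and 476 calls against control after anti-PD-1, after anti-CTLA-4 and after the combination, and 246 and 292 for the combination against anti-PD-1 and anti-CTLA-4, over 2924 to 5712 genes. A minimum of 50 counts gave 325 and 372 calls for those last 2, over 4003 and 4397 genes. In both, fewer genes were measured. Median-of-ratios scaling shifted all ratios of the combination to control by 0.12 and the other comparisons by less than 0.1. No paired analysis was possible because each group was 1 library. Depth limits genes under about 20 UMIs in a library, such as Nos2 and Cxcl13 in the combination.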
